A study of Homo sapiens with 8 samples.

Results

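A set of 10 genes of the endoplasmic reticulum (ER) stress response, HSPA5, HSP90B1, HYOU1, PDIA4, DNAJB9, DNAJC3, SDF2L1, CRELD2, HERPUD1 and XBP1, was followed in BEAS-2B cells, a virus-immortalised line of human bronchial epithelium. They were taken by symbol, and all 10 were found among the 26485 genes of the tables. Most are ER chaperones or partners of chaperones, while HERPUD1 acts in protein degradation at the ER and XBP1 is a transcription factor. The cells received control siRNA or siRNA against LY96, the gene of the lipopolysaccharide-binding protein MD-2. They were then given PBS, the vehicle, or house dust mite (HDM) extract, an allergen mixture, in BEBM medium, and RNA was taken 24 h later. The groups were control siRNA with PBS (1 library), control siRNA with HDM (3 libraries), LY96 siRNA with PBS (1 library) and LY96 siRNA with HDM (3 libraries). All come from 1 cell line. Nothing in the labels says that the 3 libraries of a group are separate cultures, so the spread that p-values rest on may be technical. The groups are called control-PBS, control-HDM, LY96si-PBS and LY96si-HDM below.

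The deposited values name no unit and were taken to be levels per transcript length (FPKM), as explained in the processing section. Their totals were 329777 to 340328 per library, and read depth is unknown. LY96 was listed at 0 in all 8 libraries, so the siRNA could not be checked and groups are named by label. All 7 epithelial markers looked for were above 0 in every library, while PTPRC, CD3E, MS4A1 and JCHAIN (leukocytes and plasma cells), DCN and LUM (fibroblasts) and PECAM1 (endothelium) were listed at 0 in all. Of the other endothelial markers, VWF was above 0 in every library, at 0.0743 to 0.316 FPKM, and CDH5 and TEK were at 0 in 1 library each. The 4 endothelial markers summed to at most 0.408 FPKM. Ribosomal RNA took 0.475% to 0.824% of the total in the control siRNA HDM libraries and 1.03% to 1.31% in the LY96 siRNA HDM libraries. The summed level of the 7 epithelial markers was 1278 to 1322 FPKM in the former and 1156 to 1220 FPKM in the latter. The summed fibroblast markers, nearly all COL1A1, were 5.73 to 6.11 FPKM in the former and 7.29 to 9.46 FPKM in the latter, and the leukocyte markers summed to at most 0.312 FPKM. The part of any of these in the siRNA differences was not tested. In bulk RNA a change per cell and a change in the share of cells using a gene cannot be told apart.

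Proteins that enter the ER are folded there by chaperones. When unfolded protein accumulates, the sensors ATF6, IRE1 (gene ERN1) and PERK (gene EIF2AK3) are activated. ATF6 is cut and moves to the nucleus, and IRE1 splices XBP1 RNA so that it encodes an active factor. Both factors switch on chaperone genes through ER stress response elements. PERK phosphorylates the translation factor eIF2alpha, which favours translation of ATF4, and ATF4 switches on amino acid and redox genes, with CHOP (gene DDIT3) among its targets. Other kinases also act on eIF2alpha, so ATF4 targets can be switched on without ER stress. Gene levels do not show XBP1 splicing or ATF6 cleavage, which were not analysed here.

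The promoters are shown first, because the ATF6 and XBP1 branch and the ATF4 branch are known for different DNA elements. The RefSeq sequence (build GRCh38.p14) from 250 bases before to 50 bases after each annotated start was searched on both strands for 4 motifs. The ER stress response element ERSE was searched as CCAAT and CCACG with any 9 bases between, its second form ERSE-II as ATTGG and CCACG with any 1 base between, the XBP1 element core (UPRE) as TGACGTGG, and the C/EBP-ATF response element of ATF4 (CARE) as TGATGNAA. The 10 genes have 12 such windows, since PDIA4 and XBP1 have 2 starts each. ERSE was found in HSPA5, HSP90B1, CRELD2 and XBP1, and in 27 of 35116 windows of all genes (0.0769%). The segments around these matches are printed 5′ to 3′ on the gene's strand, with the fixed letters of the motif in capitals.
HSPA5 (chr9:125241376-125241424, minus strand): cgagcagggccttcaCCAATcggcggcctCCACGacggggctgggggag
HSP90B1 (chr12:103930201-103930354, plus strand): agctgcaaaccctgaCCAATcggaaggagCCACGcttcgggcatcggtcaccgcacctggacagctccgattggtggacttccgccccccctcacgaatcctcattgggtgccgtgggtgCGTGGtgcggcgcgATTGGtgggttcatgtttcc
CRELD2 (chr22:49918539-49918587, plus strand): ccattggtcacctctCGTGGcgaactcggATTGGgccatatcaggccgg
XBP1 (chr22:28800588-28800636, minus strand): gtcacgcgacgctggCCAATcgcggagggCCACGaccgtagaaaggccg

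ERSE-II, which brings CCACG next to CCAAT read on the other strand, was found in HYOU1, SDF2L1 and HERPUD1, and in 19 of 35116 windows (0.0541%). HYOU1 held 2 copies, and the first of these overlaps a UPRE core, which 0.729% of windows hold. HERPUD1 also held a CARE match, the first capitals in its segment, and was the 1 gene of the 10 with that motif.
HYOU1 (chr11:119057259-119057408, minus strand): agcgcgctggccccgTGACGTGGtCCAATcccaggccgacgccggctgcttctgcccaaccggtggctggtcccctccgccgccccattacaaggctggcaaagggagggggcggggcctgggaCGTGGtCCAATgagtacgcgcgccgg
SDF2L1 (chr22:21642099-21642139, plus strand): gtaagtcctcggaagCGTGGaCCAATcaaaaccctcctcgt
HERPUD1 (chr16:56931951-56932050, plus strand): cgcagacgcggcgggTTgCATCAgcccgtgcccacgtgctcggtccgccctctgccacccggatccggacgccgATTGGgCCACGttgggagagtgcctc

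PDIA4, DNAJB9 and DNAJC3 held none of the 4 motifs in these windows, although all 10 genes held CCACG alone, present in 38.1% of windows. CARE was found in 3.62% of all windows and in 6 of the 34 windows of ATF4 and CHOP targets. These belong to 6 of the 22 such targets that had a window. CHAC1 and ASNS, whose levels are given below, are shown for comparison with HERPUD1. TRIB3 and DDIT3, which also rose with LY96 siRNA under HDM, held none of the 4 motifs. ERSE and ERSE-II were found in 0 of these 22 genes. Among other ER folding factors, 4 of the 20 genes with a window held ERSE (CALR, CANX, ERO1B and PDIA6) and 3 held the UPRE core. By window this was 6 and 3 of 31.
CHAC1 (chr15:40953247-40953284, plus strand): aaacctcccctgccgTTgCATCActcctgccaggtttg
ASNS (chr7:97872454-97872491, minus strand): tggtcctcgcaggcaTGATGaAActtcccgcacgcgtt

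**Figure D1:**
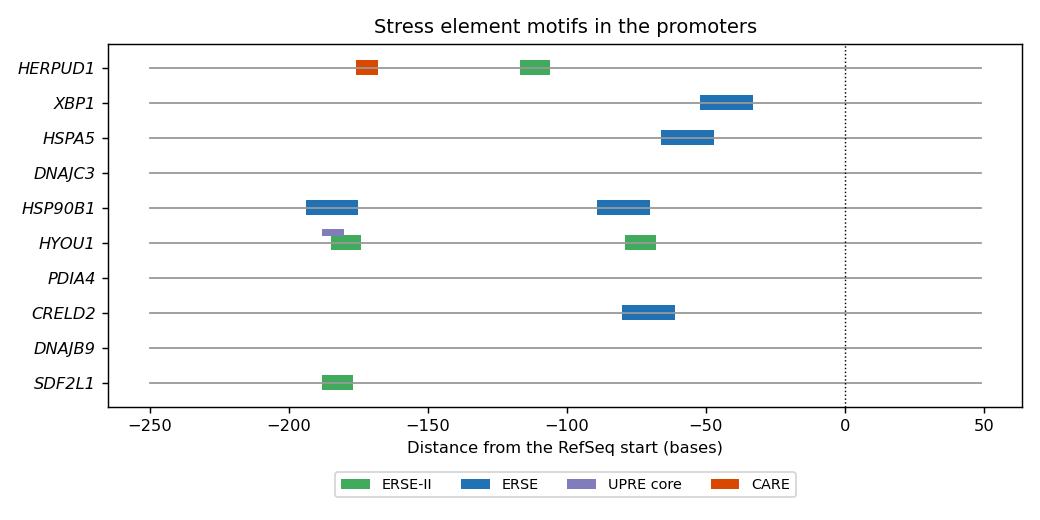
Matches of the 4 motifs in the window of each gene, by distance in bases from the RefSeq start (0), with genes ordered from the largest siRNA difference under HDM (top) to the smallest. For PDIA4 and XBP1, which have 2 windows, matches of both are drawn on 1 line. HERPUD1, at the top, carries both CARE and ERSE-II, and XBP1, next below it, carries ERSE alone, as does CRELD2 near the bottom. The line of SDF2L1, at the bottom, carries ERSE-II alone.

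Across the 4 groups the 10 genes fell into 2 patterns and a remainder. HSPA5, HYOU1 and PDIA4 rose with HDM under either siRNA. HSP90B1 rose with LY96 siRNA and missed the threshold with control siRNA, and the responses of these 4 genes under the 2 siRNAs differed by log2 -0.02 to 0.10. HERPUD1 and XBP1 were close to their PBS level in control-HDM, and far above it in LY96si-HDM. In limma the difference between these 2 responses passed for neither gene (adjusted p = 0.0779 and 0.126). SDF2L1, CRELD2, DNAJB9 and DNAJC3 passed the test in no comparison and are grouped only by that. All tests are limma on log2(FPKM + 1), with Benjamini-Hochberg adjustment over all genes tested and a threshold of 0.05. A log2 value is the difference on that scale, given with its standard error.

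**Figure D2:**
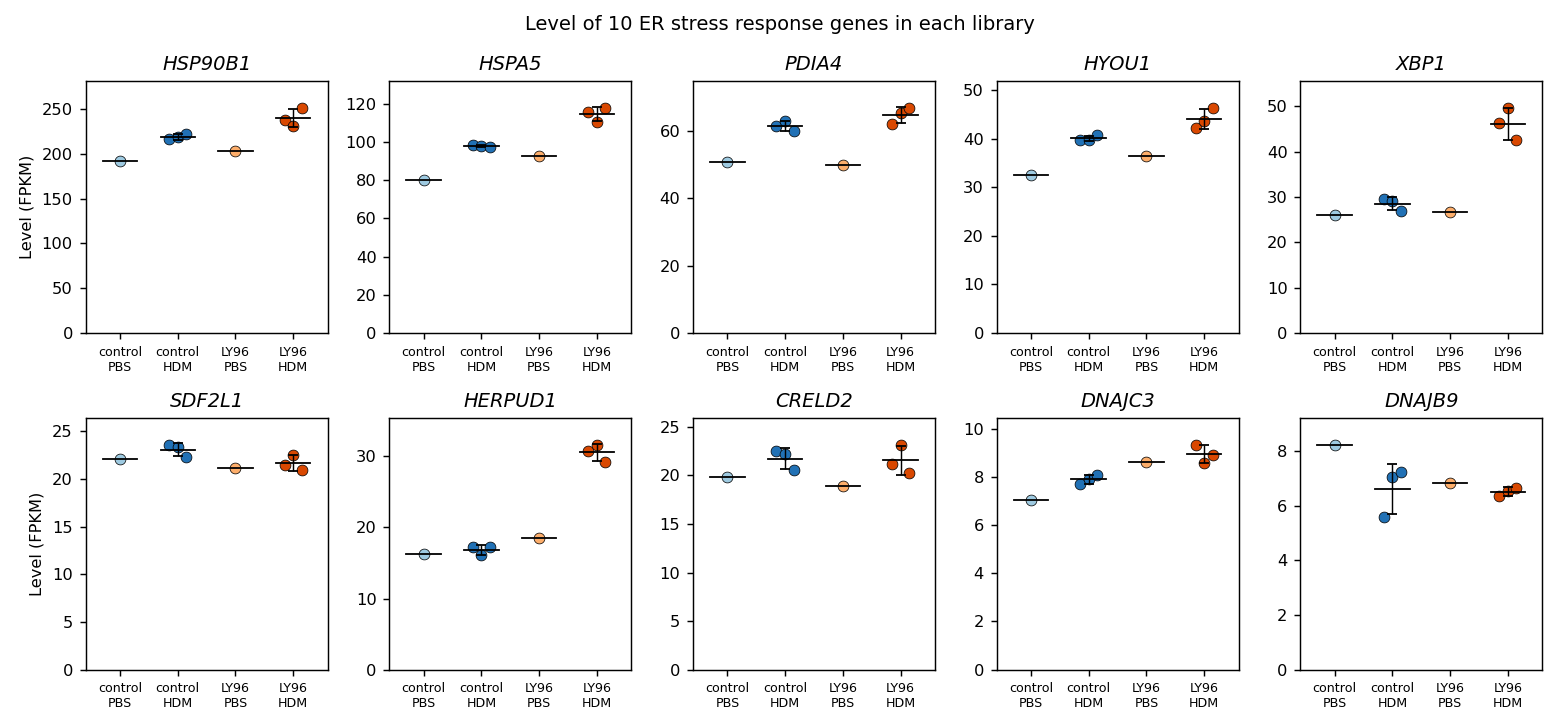
Level in FPKM of each gene in each of the 8 libraries, by siRNA (control or LY96) and stimulus (PBS or HDM), with the mean as a line and the SD as a bar for the 2 groups of 3 libraries. HERPUD1 and XBP1 stand apart in the 3 LY96 siRNA HDM libraries, at 29.3 to 31.6 and 42.6 to 49.6 FPKM.

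HSPA5 (chromosome 9, 125234853 to 125241330, GENCODE v29 on GRCh38) encodes BiP, the Hsp70 of the ER that also holds the stress sensors inactive. It was at 79.9 FPKM in control-PBS, and at 98.2, 97.9 and 97.2 FPKM in control-HDM. In LY96si-PBS it was at 92.8 FPKM, and in LY96si-HDM 115, 110.5 and 118 FPKM. Every HDM library was above the PBS library of its siRNA, and the 2 HDM groups did not overlap. HDM raised it by log2 0.29 ± 0.04 with control siRNA (adjusted p = 0.0120) and 0.30 ± 0.04 with LY96 siRNA (adjusted p = 0.00493). With plain moderation, without trend, the control siRNA call was lost (adjusted p = 0.0677). The difference between these 2 responses was log2 0.01 (95% interval -0.13 to 0.15, adjusted p = 0.976). Under HDM, LY96 siRNA libraries were higher than control siRNA libraries by log2 0.23 ± 0.03 (adjusted p = 0.00269). The 2 PBS libraries differed by nearly as much, log2 0.21, but with 1 library per siRNA they give no spread of their own.

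HSP90B1 (chromosome 12, 103930107 to 103953645) encodes GRP94, the ER form of Hsp90. It was the most abundant of the 10, at 193 FPKM in control-PBS and 216, 219 and 223 FPKM with HDM. It was at 204 FPKM in LY96si-PBS and 238, 232 and 251 FPKM in LY96si-HDM. The HDM groups did not overlap, and all HDM libraries were above their PBS library. The HDM response was log2 0.19 ± 0.05 with control siRNA, which missed the threshold (adjusted p = 0.0918), and 0.24 ± 0.05 with LY96 siRNA (adjusted p = 0.0242). The latter call was lost with no filter on low values (adjusted p = 0.0781) and with plain moderation, without trend (adjusted p = 0.106). The siRNA difference under HDM was log2 0.13 ± 0.03 (adjusted p = 0.0323). That call was lost without control HDM replicate 1, 2 or 3 (adjusted p = 0.0979, 0.0929 and 0.0634) and without LY96 HDM replicate 1 or 3 (0.0598 and 0.0825). The siRNA call was also lost with no filter on low values (adjusted p = 0.0694) and with plain moderation (0.0945). Exons of C12orf73 and TTC41P lie opposite to it, and MIR3652 on its strand, and whether counting used strand is not given, so reads may be divided among them. Its pseudogene HSP90B2P was below 0.44 FPKM in every library.

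HYOU1 (chromosome 11, 119044189 to 119057202) encodes GRP170, a large chaperone and nucleotide exchange factor for BiP. It was at 32.5 FPKM in control-PBS and at 39.8, 39.8 and 40.6 FPKM with HDM. LY96si-PBS gave 36.3 FPKM and the LY96si-HDM libraries 42.1, 43.7 and 46.3 FPKM. Its HDM responses were log2 0.29 ± 0.06 with control siRNA (adjusted p = 0.0312) and 0.27 ± 0.06 with LY96 siRNA (adjusted p = 0.0278). The siRNA difference under HDM, log2 0.13 ± 0.04, missed the threshold (adjusted p = 0.0547), although the groups did not overlap. It passed after median-ratio scaling (adjusted p = 0.0301) and when LY96 HDM replicate 1 was left out (adjusted p = 0.0375).

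PDIA4 (chromosome 7, 149003062 to 149028641) encodes ERp72, a protein disulfide isomerase. It was at 50.8 FPKM in control-PBS and at 61.3, 62.8 and 59.8 FPKM with HDM. In LY96si-PBS it was at 49.9 FPKM, and in LY96si-HDM 62.0, 65.1 and 66.7 FPKM. The 2 PBS libraries were nearly level, and the 2 HDM groups overlapped. HDM raised it by log2 0.27 ± 0.05 (adjusted p = 0.0325) with control siRNA and by 0.37 ± 0.05 (adjusted p = 0.00416) with LY96 siRNA. The siRNA difference under HDM was log2 0.07 (95% interval -0.01 to 0.16, adjusted p = 0.200). With control siRNA, the HDM calls of PDIA4 and HYOU1 were lost without any 1 of the 3 control HDM replicates. In that order of replicates the adjusted p was 0.0823, 0.0955 and 0.0562 for PDIA4 and 0.0723, 0.0796 and 0.0851 for HYOU1. With LY96 siRNA, the call of HYOU1 was lost without control HDM replicate 2 or LY96 HDM replicate 2 (adjusted p = 0.0542 and 0.0533), with no filter on low values (0.0795) and with plain moderation (0.0869).

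HERPUD1 (chromosome 16, 56932048 to 56944863) encodes Herp, a membrane protein of the ER that helps to degrade misfolded proteins. Its level with control siRNA was 16.2 FPKM with PBS and 17.3, 16.1 and 17.3 FPKM with HDM, so that 1 HDM library lay just below the PBS library. It was 18.5 FPKM in LY96si-PBS and 30.7, 31.6 and 29.3 FPKM in LY96si-HDM. The ratio of mean levels between the HDM groups was 1.81, the largest of the 10 genes (log2 0.82 ± 0.04, adjusted p = 3.21e-05). The HDM response was log2 0.05 ± 0.06 (adjusted p = 0.742) with control siRNA and 0.70 ± 0.06 (adjusted p = 2.88e-04) with LY96 siRNA. The difference between these responses, log2 0.64 ± 0.09 (95% interval 0.44 to 0.85), had an unadjusted p of 5.14e-05 and an adjusted p of 0.0779. It passed when LY96 HDM replicate 2 was left out (adjusted p = 0.0476), and its adjusted p ranged from 0.0413 to 0.294 over 13 alternatives.

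XBP1 (chromosome 22, 28794555 to 28800597), whose spliced RNA encodes the transcription factor of the IRE1 branch, followed the same pattern. It was at 26.0 FPKM in control-PBS and at 29.6, 29.1 and 27.0 FPKM with HDM. LY96si-PBS gave 26.6 FPKM and the LY96si-HDM libraries 46.3, 49.6 and 42.6 FPKM. The 2 PBS libraries were nearly level, and the LY96 siRNA HDM libraries lay far above the rest. The siRNA ratio of means under HDM was 1.62 (log2 0.67 ± 0.06, adjusted p = 3.47e-04). HDM responses were log2 0.13 ± 0.08 (adjusted p = 0.510) and 0.77 ± 0.08 (adjusted p = 0.00101) with control and LY96 siRNA. Their difference was log2 0.64 ± 0.12 (95% interval 0.38 to 0.91, unadjusted p = 4.28e-04, adjusted p = 0.126). Over 13 alternatives that adjusted p ranged from 0.0658 to 0.375.

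**Figure D3:**
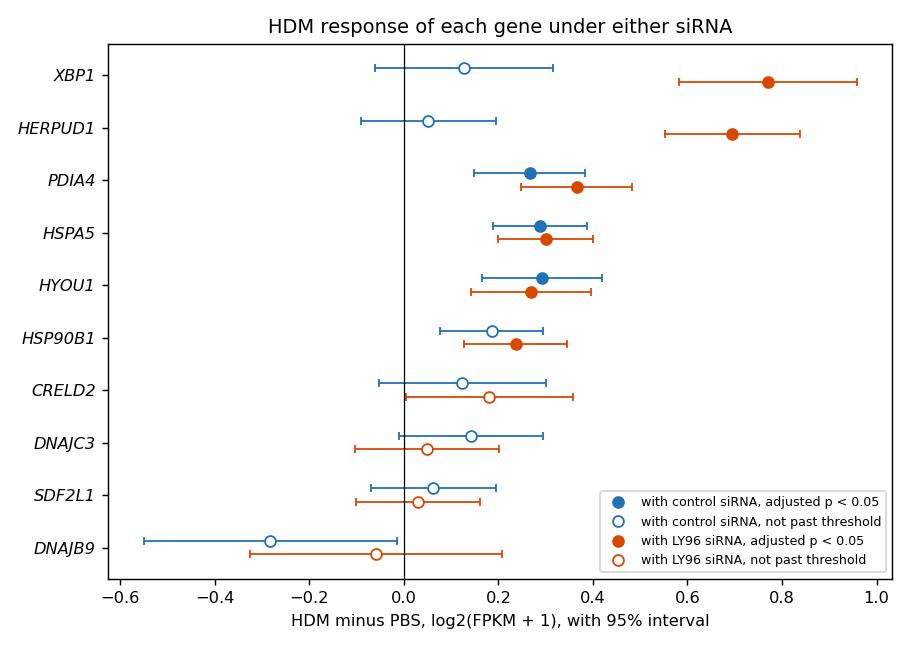
HDM response of each gene on the log2(FPKM + 1) scale with its 95% interval, with control siRNA and with LY96 siRNA; filled points had an adjusted p below 0.05. For XBP1 and HERPUD1 the 2 intervals do not overlap, and for the other 8 genes they do.

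DNAJB9 (chromosome 7, 108569568 to 108574850) encodes ERdj4, a J-domain partner of BiP that restrains IRE1. It was at 8.23 FPKM in control-PBS and at 5.58, 7.04 and 7.25 FPKM with HDM. In LY96si-PBS it was at 6.82 FPKM, and in LY96si-HDM 6.34, 6.53 and 6.66 FPKM. All HDM libraries were below their PBS library, and the HDM groups overlapped. The HDM difference was log2 -0.28 ± 0.12 with control siRNA (adjusted p = 0.280) and -0.06 ± 0.12 with LY96 siRNA (adjusted p = 0.874). Its exons overlap those of THAP5 and PNPLA8 on the opposite strand, and THAP5 was at 8.10 to 9.36 FPKM, so the level of DNAJB9 is uncertain. DNAJC3 (chromosome 13, 95677139 to 95794989), which encodes p58IPK, another J-domain protein, was at 7.06 FPKM in control-PBS and at 7.72, 7.90 and 8.06 FPKM with HDM. It was at 8.60 FPKM in LY96si-PBS and 9.33, 8.59 and 8.89 FPKM in LY96si-HDM. The siRNA groups under HDM did not overlap, and LY96si-PBS lay within the range of LY96si-HDM. The siRNA difference was log2 0.16 ± 0.05 under HDM (adjusted p = 0.0517) and 0.25 ± 0.08 under PBS (adjusted p = 0.188). Under HDM it passed after median-ratio scaling (adjusted p = 0.0395).

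SDF2L1 (chromosome 22, 21642261 to 21644298), part of the BiP chaperone complex, was at 22.0 FPKM in control-PBS and at 23.6, 23.3 and 22.3 FPKM with HDM. LY96si-PBS gave 21.2 FPKM and the LY96si-HDM libraries 21.4, 22.5 and 20.9 FPKM. CRELD2 (chromosome 22, 49918167 to 49927540), a secreted and ER-resident EGF-domain protein, was at 19.9 FPKM in control-PBS and at 22.5, 22.2 and 20.5 FPKM with HDM. In LY96si-PBS it was at 18.9 FPKM, and in LY96si-HDM 21.2, 23.2 and 20.3 FPKM. For both genes the HDM groups overlapped. The siRNA difference under HDM was log2 -0.09 (95% interval -0.18 to 0.00) for SDF2L1 and -0.01 (95% interval -0.14 to 0.11) for CRELD2. Exons of ALG12, a gene at 15.4 to 18.2 FPKM, overlap those of CRELD2 on the opposite strand.

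Counted together, LY96 siRNA under HDM raised 4 of the 10 genes (HSPA5, HSP90B1, HERPUD1 and XBP1) and lowered 0, with 6 and 0 at an unadjusted p below 0.05 in limma. Of 12598 genes tested, 6.68% rose and 8.92% fell (842 and 1124, against 1068 and 877 after median-ratio scaling). With that scaling the count was 6 of the 10 genes, since DNAJC3 and HYOU1 also passed (adjusted p = 0.0395 and 0.0301). Over 16 alternatives HSP90B1 kept its call in 9, while HSPA5, HERPUD1 and XBP1 kept theirs in all 16. In 6 of the 10 genes all LY96 siRNA HDM libraries were above all control siRNA HDM libraries, which held for 15.2% of genes tested, and in 0 genes were they all below, against 21.8%. The median difference was log2 0.13 over the 10 genes and -0.02 over all genes. HDM over both siRNAs raised 4.86% of 12604 genes and lowered 3.5%. Of the 10 genes it raised 6 (those of the 2 patterns), with a median of log2 0.25 against 0.01 over all genes. In an additive model over all 8 libraries HERPUD1 and XBP1 lost that call (adjusted p = 0.162 and 0.134). With control siRNA HDM raised 3 of 10 (HSPA5, HYOU1 and PDIA4), against 1.55% of all genes raised and 0.738% lowered. With LY96 siRNA it raised the 6 of the 2 patterns, against 2.91% raised and 1.98% lowered. That count was 4 with no filter on low values and with plain moderation, where HSP90B1 and HYOU1 lost the call. All control-HDM libraries were above control-PBS in 8 of the 10 genes (33.8% of all genes) and below it in DNAJB9 (29.2%). All LY96si-HDM libraries were above LY96si-PBS in 7 of 10 (33.4%) and below it in DNAJB9 (27.7%). Each of these HDM tests has 1 PBS library per siRNA and assumes that it varies like the HDM libraries. The control siRNA count was 1 of 10 without any 1 of the 3 control HDM replicates and with no filter, and 0 with plain moderation. For the difference between the 2 HDM responses, limma called 0 of 10 genes (2 at an unadjusted p below 0.05, HERPUD1 and XBP1), against 0.0555% of all genes higher with LY96 siRNA.

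Between the single PBS libraries 0 of 10 genes passed in limma, with 3 at an unadjusted p below 0.05 (HSPA5, HERPUD1 and DNAJC3, all higher with LY96 siRNA), against 0.254% and 0.214% of all genes higher and lower (32 and 27, or 59 and 27 after median-ratio scaling). This comparison sets 1 library against 1, and its p-values and standard errors rest on the spread of the HDM libraries. Between the PBS libraries HERPUD1 differed by log2 0.18 ± 0.08 and XBP1 by 0.03 ± 0.10, compared with 0.82 and 0.67 under HDM. Summed over the 10 genes, the level was 455 FPKM in control-PBS, 522, 525 and 523 FPKM in control-HDM, and 483 FPKM in LY96si-PBS. In LY96si-HDM it was 593, 593 and 610 FPKM. As a share of the FPKM total this is 0.135%, 0.155% to 0.156%, 0.147% and 0.174% to 0.182% in the same order of groups.

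The order of levels among the genes also shifted. In the control siRNA HDM libraries it ran from HSP90B1 (219 ± 3.28 FPKM, SD, n = 3) through HSPA5 (97.8 ± 0.492), PDIA4 (61.3 ± 1.53), HYOU1 (40.0 ± 0.504), XBP1 (28.6 ± 1.41), SDF2L1 (23.1 ± 0.668), CRELD2 (21.7 ± 1.07), HERPUD1 (16.9 ± 0.696) and DNAJC3 (7.89 ± 0.170) to DNAJB9 (6.62 ± 0.911). Among neighbours in that order SDF2L1 and CRELD2 overlapped, and the other neighbours did not. In the LY96 siRNA HDM libraries XBP1 (46.2 ± 3.53) overlapped HYOU1 (44.0 ± 2.12), and HERPUD1 (30.5 ± 1.19) lay above SDF2L1 (21.6 ± 0.829) and CRELD2 (21.5 ± 1.47), all as mean ± SD in FPKM with n = 3.

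Similarity of pattern was described by Pearson's r of log2(FPKM + 1) over the 8 libraries, which share 2 HDM groups and so are not independent points. HERPUD1 and XBP1 were alike (r = 0.970), as were HSPA5 and HSP90B1 (r = 0.970) and HSP90B1 and HYOU1 (r = 0.971). HERPUD1 was at r = 0.846 with HSPA5, 0.781 with HSP90B1, 0.722 with HYOU1 and 0.572 with PDIA4. XBP1 was at 0.863, 0.802, 0.761 and 0.699 with the same genes in that order. HSPA5 and PDIA4 were at 0.828, so r alone does not set HERPUD1 and XBP1 clearly apart. SDF2L1 and DNAJB9 were negatively related to HSPA5 (r = -0.262 and -0.597). Among the 8897 genes averaging 5 FPKM or more, those most like HERPUD1 were SLC1A5 (r = 0.993), AARS (0.991), XPOT (0.987), PDLIM4 (0.986) and IFRD1 (0.986). SLC1A5 encodes a glutamine transporter, AARS the alanyl-tRNA synthetase and XPOT the tRNA exporter. AARS and XPOT are on the list of ATF4 and CHOP targets described below, and the others are not. Those most like HSPA5 were PCDHGC3 (0.993), RCN1 (0.991), HIF1A (0.990), SERPINA1 (0.988) and ERAP2 (0.988). Among these 5, RCN1 encodes a calcium-binding ER protein and ERAP2 an ER aminopeptidase. A shared function of the genes in such a list was not tested. Those most like the mean of the 10 standardised genes, leaving the 10 out, were VLDLR (0.987), NAMPT (0.979), EGR1 (0.978), CLSTN3 (0.978) and SOD2 (0.978). Of these, VLDLR alone is on the list of ATF4 and CHOP targets.

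The 25 ATF4 and CHOP targets form the comparison list, which was chosen with earlier results of these data known. With LY96 siRNA under HDM 22 of 25 rose and 0 fell (25 had an unadjusted p below 0.05, 24 of them higher). Over all genes tested 6.68% rose and 8.92% fell. The median of the list was log2 0.76, against 0.13 for the ER stress genes. CHAC1, a glutathione-degrading enzyme, was at 2.93, 2.12 and 1.74 FPKM in control-HDM and at 17.2, 22.3 and 18.3 FPKM in LY96si-HDM. PSAT1, of serine synthesis, was at 14.8, 13.3 and 13.2 FPKM and at 53.6, 66.0 and 49.8 FPKM in the same groups. ASNS, asparagine synthetase, was at 10.2, 10.7 and 10.4 FPKM and at 39.7, 52.6 and 36.5 FPKM. In all of these genes the groups were far apart, by log2 2.64, 1.95 and 1.92 (adjusted p = 2.56e-04, 2.14e-04 and 8.30e-04). In the additive model the call of ASNS was lost (adjusted p = 0.0504).

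With control siRNA HDM raised 2 of 25 ATF4 and CHOP targets (CHAC1 and STC2), with a median of log2 0.15, and 3 of 10 ER stress genes, with a median of 0.13. With LY96 siRNA it raised 22 of 25, with a median of 0.70, and 6 of 10, with a median of 0.25. Over all genes tested HDM raised 1.55% and lowered 0.738% with control siRNA, and raised 2.91% and lowered 1.98% with LY96 siRNA. The count of 2 lay between 0 and 5 when single HDM libraries were left out: it was 0 without control HDM replicate 2, 5 without LY96 HDM replicate 2 and 1 without control replicate 1 or 3 or LY96 replicate 1 or 3. ATF4 itself was at 123 FPKM in control-PBS, 145, 139 and 132 FPKM in control-HDM, 135 FPKM in LY96si-PBS, and 258, 282 and 254 FPKM in LY96si-HDM. Its siRNA difference under HDM, log2 0.93 ± 0.05 (adjusted p = 3.06e-05), was near that of HERPUD1. The siRNA comparison under HDM and the HDM response with LY96 siRNA share the 3 LY96 siRNA HDM libraries.

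**Figure D4:**
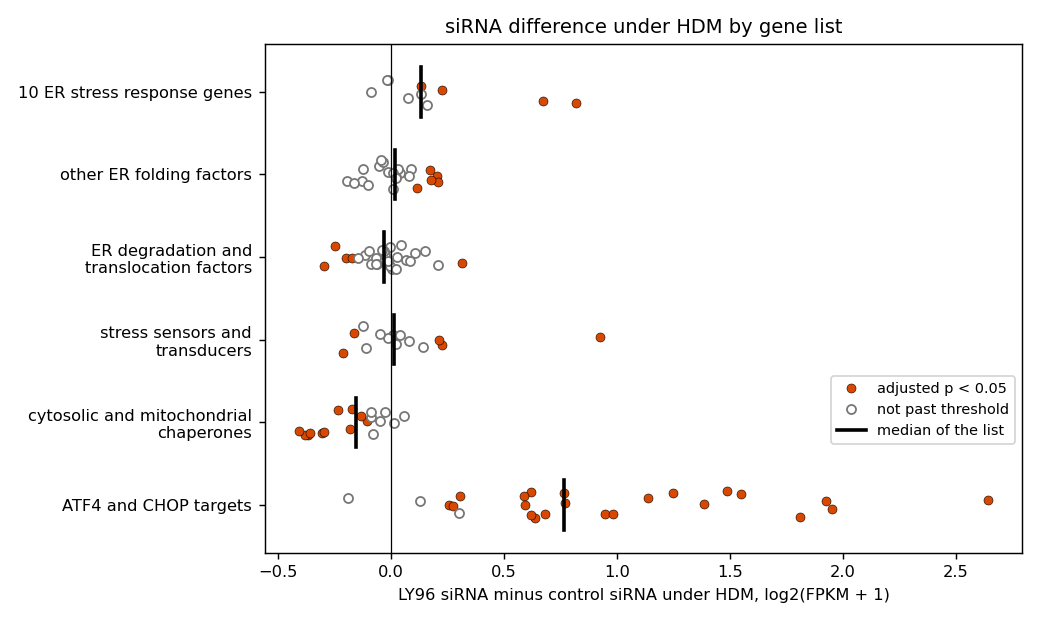
Difference between LY96 siRNA and control siRNA under HDM on the log2(FPKM + 1) scale for each gene of 6 lists, with the list median as a vertical bar; filled points had an adjusted p below 0.05. The ATF4 and CHOP targets have a median of 0.76, the 10 ER stress genes 0.13, and the cytosolic and mitochondrial chaperones -0.15.

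Other ER folding factors mostly showed small differences. Of 22 other ER folding factors 5 rose with LY96 siRNA under HDM and 0 fell (median log2 0.02). Over all genes tested 6.68% rose and 8.92% fell. The 5 were the lectin chaperones CANX (log2 0.20 ± 0.03, adjusted p = 0.00180) and CALR (0.11), their partner PDIA3 (0.17), the glycoprotein folding sensor UGGT1 (0.18) and the oxidase ERO1A (0.21). CANX was at 144, 147 and 146 FPKM in control-HDM and at 170, 167 and 166 FPKM in LY96si-HDM, and its PBS libraries were at 129 and 155 FPKM. The LY96 siRNA PBS library of CANX was thus above all control siRNA HDM libraries. Between the PBS libraries, 1 per siRNA, CANX differed by log2 0.26, PDIA3 by 0.23, UGGT1 by 0.23 and ERO1A by 0.25. These differences were larger than those under HDM. For CALR the PBS difference was 0.07, smaller than under HDM. ERO1A lost the call when control HDM replicate 3 or LY96 HDM replicate 1 or 3 was left out (adjusted p = 0.0689, 0.0581 and 0.0683), and UGGT1 without control replicate 2 and LY96 replicates 2 and 3 (0.0638, 0.0511 and 0.0547). CALR lost it without any 1 of the HDM libraries other than LY96 HDM replicate 1 (adjusted p = 0.0875 to 0.111). HDM over both siRNAs raised 7 of the 22 and lowered 0 (median log2 0.12), against 4.86% and 3.5% of all genes tested. CALR (0.21, adjusted p = 0.00325) and PDIA3 (0.19, adjusted p = 0.00600) were among the 7. The count of 7 was 4 after quantile normalization.

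Among 29 ER degradation and translocation factors 1 rose with LY96 siRNA under HDM and 4 fell (median log2 -0.03). Over all genes tested 6.68% rose and 8.92% fell, with a median of log2 -0.02. The riser was HERPUD2, the relative of HERPUD1 (log2 0.31 ± 0.06, adjusted p = 0.0101). Its level was 5.62, 5.04 and 4.83 FPKM in control-HDM and 6.69, 6.81 and 6.46 FPKM in LY96si-HDM, and LY96si-PBS, at 6.88 FPKM, was above them all. The fallers were the translocon subunits SEC61G (log2 -0.30) and SEC61B (-0.20), the signal peptidase subunit SPCS3 (-0.17) and the ubiquitin-conjugating enzyme UBE2J1 (-0.25). SEC61B lost the call without control HDM replicate 1 or 3 (adjusted p = 0.0704 and 0.0679), and SPCS3 without control HDM replicate 2 (adjusted p = 0.0583). HDM over both siRNAs called 0 of the 29 in limma (2 at an unadjusted p below 0.05), against 4.86% of all genes raised and 3.5% lowered.

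The genes of the 3 sensors differed between the HDM groups by less than the SD of control-HDM. ATF6 was at 6.74 ± 0.356 FPKM in control-HDM and 6.66 ± 0.0657 in LY96si-HDM. ERN1 was at 1.56 ± 0.217 and 1.57 ± 0.167 FPKM, and EIF2AK3 at 5.47 ± 0.372 and 5.57 ± 0.158 FPKM (SD, n = 3 each). Of 14 sensors and transducers tested, of 15 listed, 3 rose and 2 fell with LY96 siRNA under HDM. Over all genes tested 6.68% rose and 8.92% fell. The 3 that rose were ATF4, the ATF6 relative ATF6B (log2 0.22) and the eIF2alpha phosphatase subunit PPP1R15B (0.21). The 2 that fell were EIF2S1 (-0.16), which encodes eIF2alpha, and the ATF6-cutting protease MBTPS2 (-0.21). MBTPS2 lost the call when any 1 HDM library other than LY96 HDM replicate 3 was left out (adjusted p = 0.0688 to 0.0887). EIF2S1 lost it without control HDM replicate 2 or LY96 HDM replicate 1, 2 or 3 (adjusted p = 0.0507 to 0.0764).

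Chaperones outside the ER were also counted. With LY96 siRNA under HDM 0 of 18 cytosolic and mitochondrial chaperones rose and 11 fell (median log2 -0.15, with 12 at an unadjusted p below 0.05). Over all genes tested 6.68% rose and 8.92% fell. HSPA8, the constitutive cytosolic Hsp70, was at 512, 533 and 555 FPKM in control-HDM and at 406, 381 and 419 FPKM in LY96si-HDM. It fell by 0.41 on the log2 scale (adjusted p = 7.03e-04), whereas its ER counterpart HSPA5 rose. The stress-inducible HSPA1A and HSPA1B fell by 0.37 and 0.38 on the same scale (adjusted p = 5.13e-04 and 3.51e-04). These are near-identical copies, so reads may be divided between them. With control siRNA HDM raised 0 of the 18 and lowered 1, the small heat shock protein gene HSPB1 (log2 -0.30, adjusted p = 0.00666). In that comparison 1.55% of all genes rose and 0.738% fell.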

How the data were processed

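RNA of 8 BEAS-2B libraries was analysed. The authors deposited 1 table per library with 1 value per gene. No label or header names a unit. FPKM was inferred for the deposited values, since each value times the kilobases of its gene's longest GENCODE v29 transcript sums to between 1003000 and 1021000 in each library. The submitters' processing notes list HISAT2 2.2.0 and hg38. No quantifier, annotation or strand setting is given in the sources used here. Low values showed no whole-read steps, so depth is unknown.

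Tests used limma 3.58.1 in R 4.3.3 with trend and robust moderation on log2(FPKM + 1), which understates changes of low genes. A gene was tested if its mean over the fitted libraries reached 1 FPKM, and all 10 genes passed. For the siRNA effect under HDM the 6 HDM libraries were fitted. HDM effects, their difference and the PBS comparison were contrasts of 4 group means over 8 libraries. Each PBS group has 1 library, so the spread in all of these tests was taken from the HDM libraries. The fits were tested on simulated data. The 10 genes and all gene lists were chosen with earlier results of these data known. Named genes were all 10, and up to 3 called in each direction per other list, with further called members named after their values were seen. MESD, SELENOS, AARS1 and WARS1 were matched by older symbols. Promoters are from RefSeq (GRCh38.p14). NUPR1, SHMT2 and SLC7A11 had no promoter entry. Alternatives were pseudocount, filter, scaling, moderation, model, sample-number block and leaving out each HDM library. No library pair held identical values.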

Additional observations from a re-analysis of the deposited data

Results flagged for a closer look

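The HDM response differed between the siRNAs, by limma's test of the difference itself, for 5 of the stress genes listed, none of them among the 10 ER stress genes. Over all genes tested 7 of 12604 (0.0555%) passed, all higher with LY96 siRNA. These tests have 1 PBS library per siRNA and assume that it varies like the HDM libraries. With plain moderation no gene passed. The response with LY96 siRNA exceeded that with control siRNA by log2 1.76 for SLC7A11 (adjusted p = 0.0384), 1.39 for DDIT3, 1.21 for STC2, 1.01 for MTHFD2 and 0.80 for ATF4 (adjusted p = 0.0430 for each of these 4). When single HDM libraries were left out, adjusted p ranged from 0.0106 to 0.0681 for SLC7A11, from 0.0102 to 0.0878 for DDIT3, from 0.0102 to 0.113 for STC2, from 0.00501 to 0.133 for MTHFD2 and from 0.0130 to 0.0878 for ATF4. The call of ATF4 held in 1 of 6 such fits, that without LY96 HDM replicate 2.

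CDH1, the E-cadherin gene of the epithelial markers, was at 26.7 FPKM in control-PBS and at 28.1, 27.0 and 27.3 FPKM in control-HDM, all above. LY96si-PBS stood at 49.7 FPKM and LY96si-HDM at 41.6, 39.6 and 35.8 FPKM, all below. The difference in response was log2 -0.39 (adjusted p = 0.411), so it did not pass the test, and only the opposite sides of the libraries marked it out.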

How the results depend on the processing

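Of 410 counts of called genes recomputed under the alternatives, 367 stayed within 1.5 times their value, and of 820 values of the 10 ER stress genes, 768 kept direction and side of the threshold, 26 lost a call, 12 gained one and 14 changed sign, all 14 without a call. Causes were not tested. Under HDM, the siRNA difference of CRELD2 turned to 0.0064 (median-ratio) and 0.0017 (quantile normalization) and that of DNAJB9 to 0.0033 (median-ratio). Leaving out single replicates gave -0.0644 to 0.0268 for CRELD2, -0.118 to 0.0457 for DNAJB9, and 1119 to 1369 called genes instead of 1966. In the additive model 1 ATF4 and CHOP target fell with LY96 siRNA under HDM, and 5 instead of 21 rose with HDM over both siRNAs. For HDM with control siRNA, 1 of the 10 ER stress genes and 0 ATF4 and CHOP targets rose with no filter, and 0 and 0 with plain moderation (no trend), which called 180 genes instead of 288. Single replicates left out gave 1 to 3 of the 10 genes, 0 to 5 targets and 187 to 329 genes. Between the PBS libraries, 97 genes were called at a mean of 5 FPKM or more, 2 with plain moderation and 26 to 55 without single HDM replicates, instead of 59, and PDIA4 turned to 0.0056 (median-ratio) and 0.0242 (quantile). For the difference in HDM response, no filter called 1 target and 20 genes, a mean of 5 FPKM 1 of the 10 genes and 15 genes, quantile normalization 1 of the 10 and 14 genes, and plain moderation 0 targets and 0 genes, instead of 4 targets and 7 genes. Leaving out replicates gave 0 to 1 of the 10 genes, 0 to 12 targets and 0 to 33 genes there. HSPA5 turned to -0.0121 (quantile) and ranged from -0.0074 to 0.0377 without single replicates, and HYOU1 from -0.0598 to 0.0073. Same-numbered HDM libraries did not deviate together (r = 0.0485, -0.0165 and -0.0162 over 12598 genes). No pairing by number was thus seen, but such an r cannot exclude one. A replicate block called 4 of the 10 genes and 22 targets higher and 1635 genes in all, and ERO1A and MBTPS2 lost their calls. Unknown depth limits what can be said of genes near 0.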
